A study of Mus musculus with 15 samples.

Results

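Transcript levels of the enzymes and transporters of glycolysis, lactate export and the pentose phosphate pathway were examined in mouse bone marrow cells. The members were 33 genes named by symbol, from glucose uptake to lactate efflux and through both branches of the pentose phosphate pathway. They matched 34 of the 56979 identifiers in the deposited table, because Aldoa has a second row (ENSMUSG00000114515) that held at most 3.99 TPM in any library. TPM is a transcript level corrected for gene length and scaled so that every library has the same total.

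RNA sequencing had been done on polyadenylated RNA from 15 libraries of wild-type mouse bone marrow cells, with 3 libraries in each of 5 groups. Among the BMDM (bone marrow-derived macrophages), LPS_NZM libraries came from cells given lipopolysaccharide and NZM, LPS libraries from cells given lipopolysaccharide alone, and Control libraries from vehicle-treated cells. Lipopolysaccharide comes from the outer membrane of bacteria and activates macrophages. Among the BMSC, Aged_NZM libraries carry the treatment H2HO with NZM and Aged libraries the treatment H2HO. The series states that cells were pretreated with a model drug before NZM, and it explains neither NZM nor H2HO nor the abbreviation BMSC. Whether replicates are separate animals or cultures is not in the labels, so the p-values speak only for the spread among the libraries at hand, and that spread may be technical. Not analysed here were BMDM given NZM alone and BMSC that had no H2HO. TPM carry no read totals, so the depth behind each value is unknown.

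Glycolysis splits glucose into pyruvate in a chain of enzymes, and lactate dehydrogenase and the monocarboxylate transporters then turn pyruvate into lactate and move it across the membrane. The pentose phosphate pathway branches off after hexokinase, first in oxidative steps that yield NADPH and then in reversible steps that yield ribose phosphate and return carbon to glycolysis. In macrophages, lipopolysaccharide is known for a shift toward glycolysis in which the PFKFB enzymes matter, since they set the level of the main activator of phosphofructokinase.

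The labelled cell types were checked against marker lists. The 8 macrophage markers summed to between 22035 and 28945 TPM in the 9 BMDM libraries and to between 107 and 130 TPM in the 6 BMSC libraries, where Adgre1 was at 0 in every Aged library and Itgam at 0 in every Aged_NZM library. The 11 stromal markers summed to between 4176 and 4259 TPM in Aged_NZM, to between 1287 and 1387 TPM in Aged, and to between 2439 and 3066 TPM in BMDM. Single stromal markers did not all share that order, with Cxcl12 at 679, 128 and 55.3 TPM and Eng at 3.51, 2.97 and 41.5 TPM in Aged_NZM, Aged and Control (means). The 8 neutrophil markers summed to between 1934 and 2323 TPM in LPS_NZM, 2221 and 2444 TPM in LPS, 1488 and 1682 TPM in Control, and at most 25.2 TPM in BMSC. Within BMDM the macrophage sum was 22035 to 22542 TPM in LPS_NZM, 22388 to 22590 TPM in LPS and 26593 to 28945 TPM in Control, and most of it was Lyz2 (means of 17530, 16306 and 22620 TPM in LPS_NZM, LPS and Control). The single markers did not all share that order. Itgam (557, 570 and 673 TPM) and Mertk (27.3, 27.7 and 56.0 TPM) rose from LPS_NZM over LPS to Control. Adgre1 was at 937, 1097 and 706 TPM and Cd14 at 101, 2396 and 225 TPM in the same groups. The 5 mast cell and basophil markers ranged from 14.0 to 410 TPM in Control, and the erythroid, endothelial, dendritic, B cell and T cell lists summed to at most 131 TPM in any library. In such bulk libraries, fewer cells of a type and less RNA per cell cannot be told apart, and the part of these other cell types in the results below was not tested.

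Promoter sequences were taken from RefSeq windows on GRCm38.p6, which are 300 bases long and span a start site, and 32 of the 33 members had at least one. They were searched on both strands for ACGTG, the core of the element bound by hypoxia-inducible factors, and for GGGA and CC with any 4 bases between them, a form of the NF-kB motif. Counted per window, ACGTG was found in 21 of the members' 47 windows (44.7%), against 19.6% of all 32851 windows, and the NF-kB form in 10 of 47 (21.3%), against 20.7%. Counted per gene with any matching window, ACGTG was found in 17 of 32 members (53.1%), against 21.8% of 27025 genes, and the NF-kB form in 9 of 32 (28.1%), against 22.9%. The members had 47 windows for 32 genes, against 32851 windows for 27025 genes in all. Windows are shown for 4 genes with large changes in BMDM, each of another role (regulator, transporter, lactate exporter, hexokinase), and for Pfkfb4, whose changes in BMDM had the opposite sign. All are written on the gene's own strand, and capitals mark the matched letters.

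Pfkfb3 (chr2:11502041-11502340, minus strand) held ACGTG on both strands in overlapping positions, 52 and 53 bases before the start site. A second Pfkfb3 window, not shown, held it once, 60 bases before its start site.
Pfkfb3: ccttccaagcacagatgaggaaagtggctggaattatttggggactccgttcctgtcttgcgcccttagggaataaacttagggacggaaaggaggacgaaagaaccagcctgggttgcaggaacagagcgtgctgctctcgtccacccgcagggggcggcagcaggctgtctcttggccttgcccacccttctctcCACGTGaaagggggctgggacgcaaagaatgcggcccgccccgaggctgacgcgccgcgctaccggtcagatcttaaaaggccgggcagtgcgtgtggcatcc

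Slc2a6 (chr2:27027949-27028248, minus strand) held no ACGTG and a single NF-kB form, 101 bases before the start site.
Slc2a6: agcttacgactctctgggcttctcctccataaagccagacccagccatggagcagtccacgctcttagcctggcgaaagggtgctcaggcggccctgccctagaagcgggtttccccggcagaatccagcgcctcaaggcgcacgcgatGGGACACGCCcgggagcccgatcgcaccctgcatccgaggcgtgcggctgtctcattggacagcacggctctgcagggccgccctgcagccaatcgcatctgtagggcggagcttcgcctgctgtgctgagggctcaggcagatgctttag

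Slc16a3 (chr11:120948817-120949116, plus strand) held ACGTG at 27 and 14 bases before the start site, and the NF-kB form at 17 bases before it that overlaps the nearer ACGTG.
Slc16a3: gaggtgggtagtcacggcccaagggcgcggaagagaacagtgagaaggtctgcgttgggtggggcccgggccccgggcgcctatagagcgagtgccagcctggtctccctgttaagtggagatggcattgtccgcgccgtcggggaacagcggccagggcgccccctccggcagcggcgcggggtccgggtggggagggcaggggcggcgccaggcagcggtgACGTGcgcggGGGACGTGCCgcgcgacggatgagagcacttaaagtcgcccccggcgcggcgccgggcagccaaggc

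Hk2 (chr6:82774405-82774704, minus strand) held ACGTG on the opposite strand at 226 and 52 bases before the start site.
Hk2: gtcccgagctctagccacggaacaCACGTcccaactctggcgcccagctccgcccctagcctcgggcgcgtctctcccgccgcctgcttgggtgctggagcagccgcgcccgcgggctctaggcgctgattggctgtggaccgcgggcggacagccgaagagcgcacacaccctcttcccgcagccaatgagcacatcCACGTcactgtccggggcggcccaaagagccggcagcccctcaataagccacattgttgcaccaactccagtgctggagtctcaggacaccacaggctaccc

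Pfkfb4 (chr9:108991652-108991951, plus strand) held neither motif in this window.
Pfkfb4: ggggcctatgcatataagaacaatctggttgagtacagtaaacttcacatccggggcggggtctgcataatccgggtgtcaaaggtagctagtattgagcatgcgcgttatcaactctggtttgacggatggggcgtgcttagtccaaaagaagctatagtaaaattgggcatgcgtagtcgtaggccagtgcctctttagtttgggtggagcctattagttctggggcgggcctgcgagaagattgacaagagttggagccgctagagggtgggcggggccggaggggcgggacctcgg

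A match is a description of these letters and not of binding, and the windows belong to an older genome build than the expression values. The windows shown do not stand for all members. Of the other members that fell in LPS against Control on both scales used below, Pfkfb2, Pfkm and Aldoc held ACGTG. Pfkfb2, Pfkm and Pgls held the NF-kB form, and Taldo1 held neither motif. Of the members that rose there on both scales, Pfkp, Tpi1 and Pgd held neither.

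The comparison of LPS with Control describes what lipopolysaccharide did to the pathway in BMDM. The transporter genes Slc2a1 and Slc2a6, the regulator Pfkfb3, the lactate exporter gene Slc16a3 and the lactate carrier gene Slc16a1 rose, and Pfkfb2, Pfkfb4, transaldolase (Taldo1) and phosphogluconolactonase (Pgls) fell. In limma with Benjamini-Hochberg adjustment over 14486 tested genes, 15 of the 34 member rows rose and 16 fell, where 15.2% of all tested genes rose and 65.6% fell. The median log2 change was -0.038 over the members and -0.48 over all tested genes. Because TPM are shares of a whole, each comparison was also made with the median of the tested genes set equal across libraries, which is called centring below. After centring, 21 members rose and 6 fell (36.5% and 29.1% of all tested genes), and 15 rose and 6 fell on both scales. Those that rose on both were Slc2a1, Slc2a6, Hk1, Hk2, Pfkl, Pfkp, Pfkfb3, Aldoa, Tpi1, Pgk1, Pgam1, Ldha, Slc16a1, Slc16a3 and Pgd, and those that fell were Pfkm, Pfkfb2, Pfkfb4, Aldoc, Pgls and Taldo1.

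Addition of NZM to LPS-treated BMDM is described by LPS_NZM against LPS, which shares its LPS libraries with the first comparison. Here Pfkfb3, Slc2a6, Slc16a3, Hk2, Slc16a1 and Slc2a1 fell, and Pfkfb4, Pfkfb2, Pgls and Tkt rose. Counted over all 34 rows, 15 rose and 17 fell, where 60.4% of all tested genes rose and 16.9% fell, and the median change was -0.016 over the members and 0.40 over all genes. After centring, 5 members rose and 20 fell (29.8% and 35.3% of all tested genes), and 5 rose and 17 fell on both scales. Those that rose on both were Gpi1, Pfkfb2, Pfkfb4, Pgls and Tkt, and those that fell were Slc2a1, Slc2a6, Hk1, Hk2, Pfkl, Pfkp, Pfkfb3, Aldoa, Tpi1, Pgk1, Pgam1, Ldha, Slc16a1, Slc16a3, G6pdx, Pgd and Rpe.

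Where both agents were present, LPS_NZM against Control gave 10 member rows that rose and 15 that fell, where 18.6% of all tested genes rose and 29.1% fell. The median change was -0.12 over the members and -0.071 over all tested genes. Centring left 11 that rose and 9 that fell (24.9% and 22% of all tested genes), with 10 and 9 called on both scales. Those higher on both were Slc2a1, Slc2a6, Hk3, Gpi1, Pfkl, Pfkp, Pfkfb4, Ldha, Rpia and Tkt, and those lower were Hk1, Hk2, Pfkm, Pfkfb2, Aldoc, Pkm, G6pdx, Pgd and Taldo1. The calls of Hk3, Gpi1 and Rpia were the least secure: that of Hk3 was lost without LPS_NZM replicate 1 (adjusted p = 0.0688) or 2 (0.0675) or Control replicate 1 (0.0524) or 2 (0.0561), that of Gpi1 without LPS_NZM replicate 1 (0.0694) or Control replicate 1 (0.061), and that of Rpia without LPS_NZM replicate 3 (0.0569) or Control replicate 1 (0.054) or 3 (0.0527). This comparison shares its libraries with the other 2 in BMDM.

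**Figure D1:**
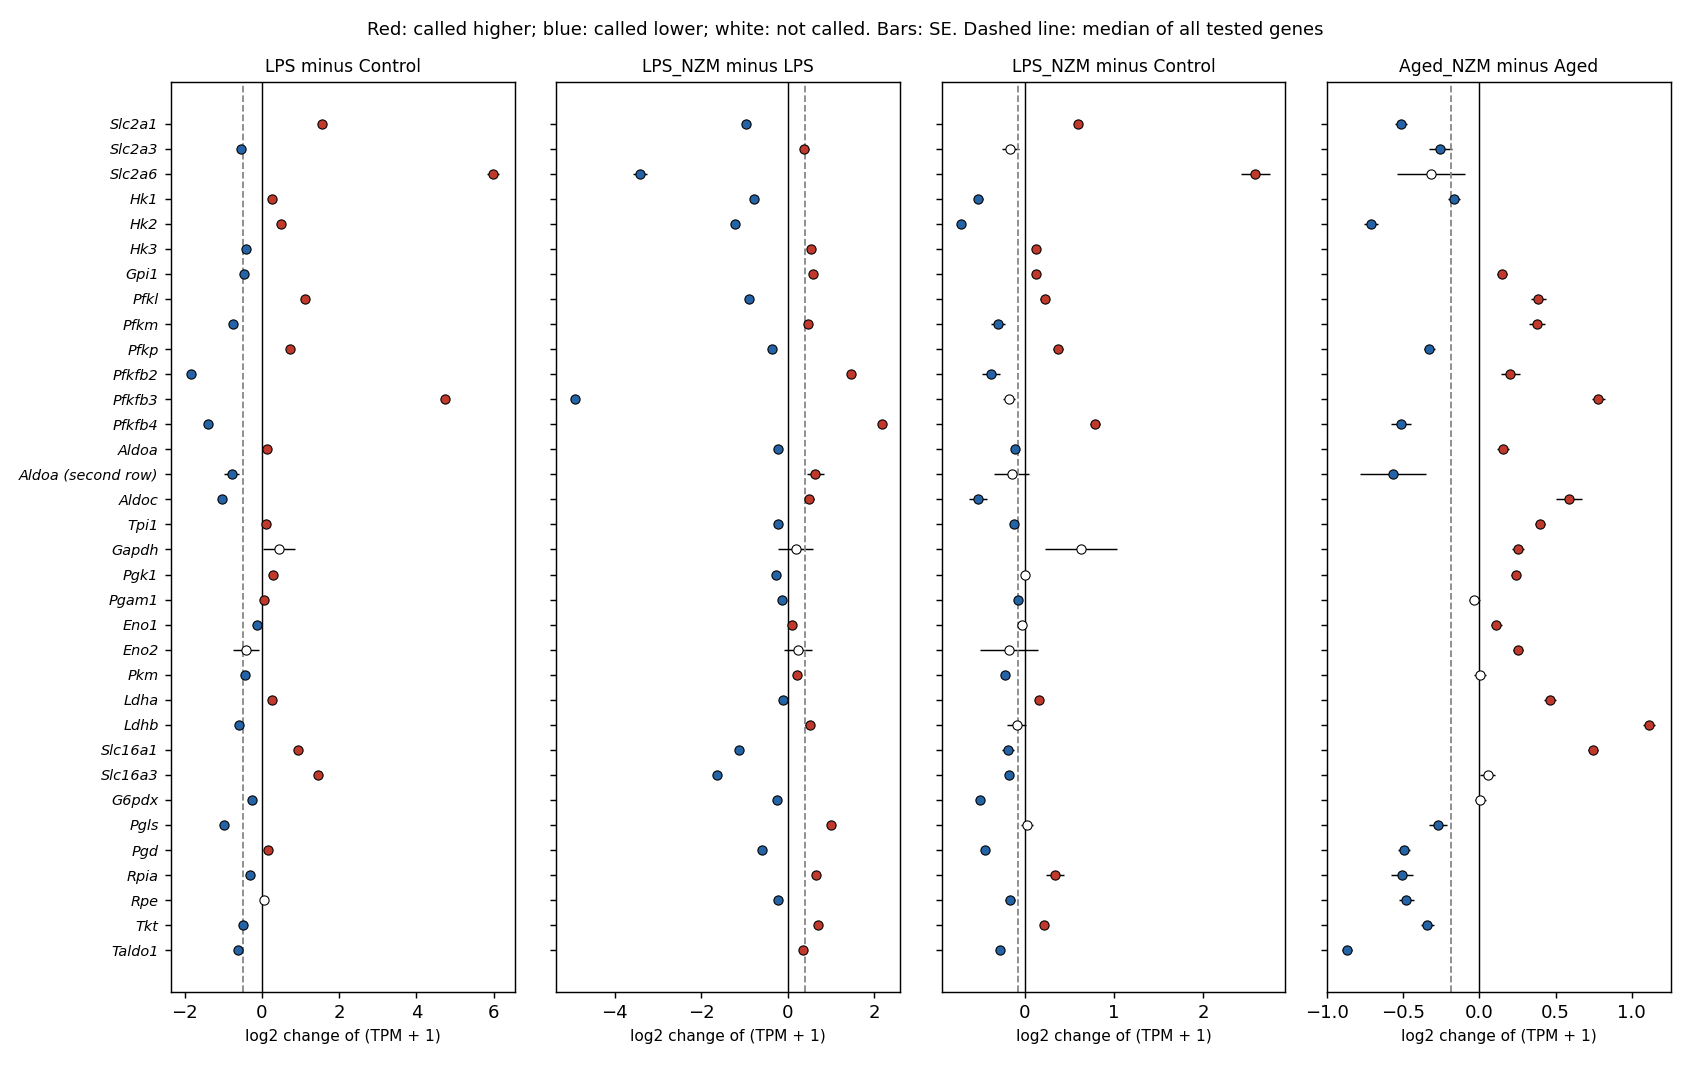
Change of each member row (rows, in pathway order) in 4 comparisons, as the difference of mean log2(TPM + 1) (x axis, a different range in each panel), with bars for the standard error. Red rows rose, blue rows fell and white rows were not called in limma at an adjusted p under 0.05, and the dashed line is the median of all tested genes (-0.48, 0.40, -0.071 and -0.18 from left to right). Hk3 was below the filter in BMSC and has no point in the last panel.

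Glucose enters through the transporters of the SLC2 family. Slc2a1 (ENSMUSG00000028645), which encodes the widely expressed transporter GLUT1, had 73.0, 75.3 and 71.8 TPM in LPS_NZM, 147, 137 and 151 TPM in LPS and 46.7, 48.7 and 49.9 TPM in Control. The 3 groups did not overlap, with LPS the highest and Control the lowest. The log2 change was -0.97 (SE 0.043, adjusted p = 1.23e-08) for LPS_NZM against LPS, 1.56 (SE 0.043, adjusted p = 3.86e-10) for LPS against Control and 0.59 (SE 0.043, adjusted p = 2.64e-06) for LPS_NZM against Control. Slc2a6 (ENSMUSG00000036067), which encodes a family member of lysosomal membranes in macrophages, had 33.7, 33.9 and 36.6 TPM in LPS_NZM, 370, 377 and 389 TPM in LPS and 3.61, 4.66 and 7.14 TPM in Control. Every LPS_NZM library lay below every LPS library and above every Control library. Its changes were -3.41 (SE 0.16, adjusted p = 2.05e-08) for LPS_NZM against LPS, 5.99 (SE 0.16, adjusted p = 3.25e-10) for LPS against Control and 2.58 (SE 0.16, adjusted p = 8.09e-07) for LPS_NZM against Control. Slc2a3, which encodes the high-affinity transporter GLUT3, averaged 9.94 ± 0.43 TPM in LPS_NZM, 7.39 ± 0.838 TPM in LPS and 11.3 ± 1.35 TPM in Control (SD, n = 3 each). It fell in LPS against Control (log2 change -0.55, adjusted p = 0.00052) and was not called after centring (-0.001, adjusted p = 0.995).

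Hexokinases trap glucose in the cell as glucose phosphate. Hk2 (ENSMUSG00000000628), the inducible form, had 31.5, 30.1 and 31.7 TPM in LPS_NZM, 72.8, 74.2 and 73.9 TPM in LPS and 49.1, 53.6 and 52.4 TPM in Control. No library of one group overlapped another group, and LPS_NZM was the lowest. The change was -1.22 (SE 0.042, adjusted p = 1.97e-09) for LPS_NZM against LPS, 0.5 (SE 0.042, adjusted p = 1.61e-06) for LPS against Control and -0.71 (SE 0.042, adjusted p = 5.33e-07) for LPS_NZM against Control. Hk1 (ENSMUSG00000037012), the form of most tissues, had 60.7, 59.5 and 58.1 TPM in LPS_NZM, 97.0, 105 and 107 TPM in LPS and 82.5, 90.5 and 84.1 TPM in Control. Its libraries followed the same order of groups without overlap, and its changes were -0.78 (SE 0.048, adjusted p = 1.44e-07), 0.26 (SE 0.048, adjusted p = 0.000519) and -0.52 (SE 0.048, adjusted p = 1.41e-05) for the same comparisons in the same order. Hk3, a form of myeloid cells and the most abundant hexokinase transcript in these BMDM, averaged 263 ± 7.65 TPM in LPS_NZM, 182 ± 8.0 TPM in LPS and 241 ± 4.84 TPM in Control (SD, n = 3 each). It rose in LPS_NZM against LPS (log2 change 0.53, adjusted p = 4.32e-07) and was not called there after centring (0.068, adjusted p = 0.212).

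The PFKFB enzymes, each able to make and to break down the activator of phosphofructokinase, did not move alike. Pfkfb3 (ENSMUSG00000026773), the form with the strongest synthetic activity, had 53.3, 54.9 and 62.3 TPM in LPS_NZM, 1711, 1734 and 1782 TPM in LPS and 60.3, 62.1 and 70.9 TPM in Control. The LPS libraries stood far above the other 6, and the LPS_NZM and Control ranges overlapped. Its changes were -4.92 (SE 0.068, adjusted p = 4.01e-12) for LPS_NZM against LPS and 4.74 (SE 0.068, adjusted p = 5.04e-12) for LPS against Control. LPS_NZM against Control gave -0.18 (SE 0.068, adjusted p = 0.0557) and missed the threshold, but without LPS_NZM replicate 3 the adjusted p was 0.0118 and without Control replicate 1 it was 0.0318. Pfkfb4 (ENSMUSG00000025648) had 75.2, 70.8 and 72.5 TPM in LPS_NZM, 14.9, 15.7 and 15.1 TPM in LPS and 45.1, 41.2 and 39.0 TPM in Control. Here LPS_NZM was the highest group and LPS the lowest, again without overlap. The changes were 2.18 (SE 0.056, adjusted p = 2.16e-10) for LPS_NZM against LPS, -1.39 (SE 0.056, adjusted p = 6.07e-09) for LPS against Control and 0.79 (SE 0.056, adjusted p = 2.03e-06) for LPS_NZM against Control.

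Pfkfb2 (ENSMUSG00000026409), the form best known from heart, had 16.7, 19.9 and 19.9 TPM in LPS_NZM, 6.62, 5.68 and 6.27 TPM in LPS and 24.0, 28.3 and 22.4 TPM in Control. The LPS libraries were the lowest, and every LPS_NZM library was below every Control library. It changed by 1.46 (SE 0.10, adjusted p = 3.55e-07) for LPS_NZM against LPS, -1.84 (SE 0.10, adjusted p = 6.04e-08) for LPS against Control and -0.38 (SE 0.10, adjusted p = 0.0107) for LPS_NZM against Control. The directions of Pfkfb2, Pfkfb3 and Pfkfb4 in LPS against Control and in LPS_NZM against LPS were the same after centring.

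**Figure D2:**
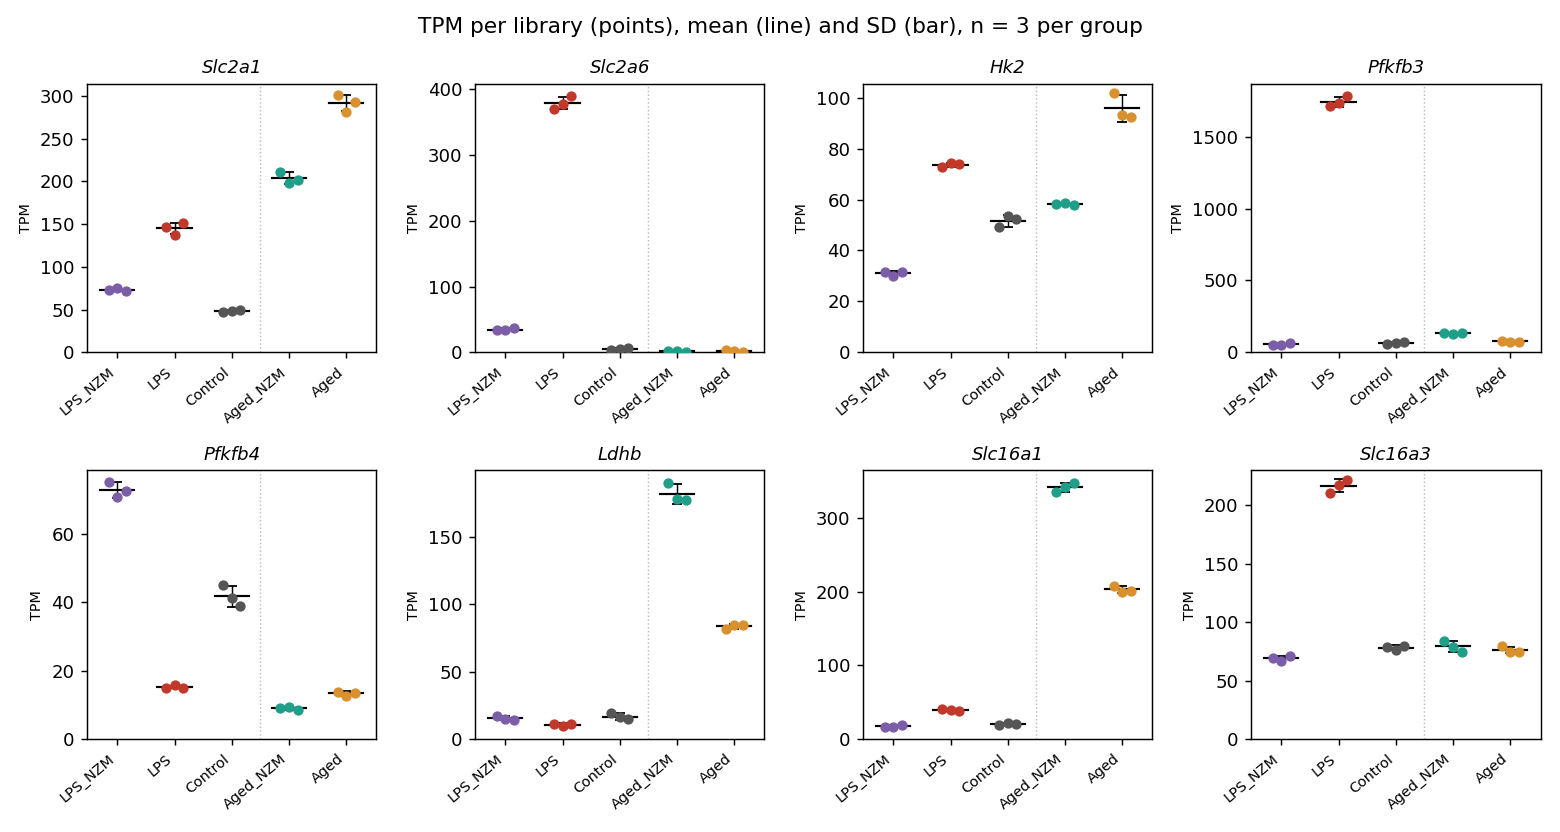
TPM (y axis, from 0, a different range in each panel) of 8 members in every library (points) of the 5 groups (x axis), with the mean as a line and the SD as a bar (n = 3); a dotted line separates BMDM from BMSC. The LPS libraries hold 1711 to 1782 TPM of Pfkfb3, and no other library exceeds 134 TPM.

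Phosphofructokinase commits sugar phosphate to glycolysis, and its isoform genes parted. Pfkl, the liver-type form, had 66.4, 63.3 and 60.3 TPM in LPS_NZM, 114, 115 and 127 TPM in LPS and 52.6, 54.3 and 55.6 TPM in Control. All LPS libraries were above the rest, and LPS_NZM was above Control. It changed by -0.89 (SE 0.051, adjusted p = 9e-08) for LPS_NZM against LPS and 1.11 (SE 0.051, adjusted p = 1.72e-08) for LPS against Control. Pfkp, the platelet-type form, followed the same order with 99.9 ± 1.35, 128 ± 3.72 and 77.4 ± 6.67 TPM in LPS_NZM, LPS and Control (SD, n = 3 each), and changed by -0.35 for LPS_NZM against LPS (adjusted p = 0.000217) and 0.72 for LPS against Control (adjusted p = 9.30e-07). Pfkm, the muscle-type form, was lowest in LPS, at 7.06 ± 0.20 TPM against 12.7 ± 1.43 TPM in Control, and fell there on both scales (-0.76 as deposited, adjusted p = 8.01e-06). Gpi1, the isomerase before this step, rose in LPS_NZM against LPS, with 457 ± 9.22 TPM in LPS_NZM and 303 ± 14.9 TPM in LPS (log2 change 0.59, adjusted p = 2.53e-07).

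The enzymes from aldolase to pyruvate kinase make up the middle and lower chain. Aldoa, Tpi1, Pgk1 and Pgam1 rose in LPS against Control on both scales, by 0.060 to 0.29 as deposited, and fell in LPS_NZM against LPS on both scales, with changes of -0.28 to -0.14. The rise of Pgam1 in LPS was no longer called without LPS replicate 2 (adjusted p = 0.0912), LPS replicate 3 (0.0713) or Control replicate 2 (0.0725). Aldoc, the brain-type aldolase, had 5.95, 6.49 and 5.78 TPM in LPS_NZM, 3.74, 4.13 and 4.14 TPM in LPS and 9.17, 10.6 and 7.97 TPM in Control. The groups did not overlap, and Aldoc fell in LPS against Control (log2 change -1.03, SE 0.10, adjusted p = 5.55e-06) and in LPS_NZM against Control (log2 change -0.53, SE 0.10, adjusted p = 0.00189). Pkm (ENSMUSG00000032294), pyruvate kinase, had 3146, 3142 and 3034 TPM in LPS_NZM, 2592, 2655 and 2763 TPM in LPS and 3668, 3579 and 3633 TPM in Control. Its groups did not overlap, and Control was the highest. The call for Pkm depended on the scale, with a fall of -0.44 (SE 0.028, adjusted p = 1.81e-07) in LPS against Control as deposited and a change of 0.10 (adjusted p = 0.0359) after centring, and with 0.22 (SE 0.028, adjusted p = 4.13e-05) in LPS_NZM against LPS as deposited and -0.24 (adjusted p = 0.000273) after centring. Against Control, Pkm was lower in LPS_NZM on both scales (log2 change -0.22 as deposited, SE 0.028, adjusted p = 0.000119).

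Eno1 (ENSMUSG00000063524), the common enolase, averaged 1225 ± 43.7 TPM in LPS_NZM, 1152 ± 30.6 TPM in LPS and 1255 ± 39.0 TPM in Control (SD, n = 3 each). LPS_NZM overlapped both other groups, and LPS against Control gave -0.12 (SE 0.034, adjusted p = 0.0075) as deposited and 0.42 (adjusted p = 1.09e-05) after centring. LPS_NZM against LPS gave 0.089 (SE 0.034, adjusted p = 0.0384) as deposited and -0.38 (adjusted p = 2.56e-05) after centring, and the call as deposited was lost without LPS_NZM replicate 1 (0.137) or 2 (0.104) or LPS replicate 1 (0.124) or 2 (0.088). Eno2, the enolase of neurons, stayed between 2.11 and 7.13 TPM in BMDM and was not called there, but without Control replicate 3 it was lower in LPS (adjusted p = 0.00207) and in LPS_NZM (0.0244) than in Control.

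Gapdh and Eno1 share reads with near-identical copies. Gapdh (ENSMUSG00000057666) had 215, 66.6 and 67.0 TPM in LPS_NZM, 128, 68.3 and 74.1 TPM in LPS and 64.7, 62.8 and 62.9 TPM in Control on its own row. Replicate 1 of LPS_NZM and of LPS stood apart from the other libraries, and no comparison within BMDM was called (0.19 for LPS_NZM against LPS with adjusted p = 0.687, 0.44 for LPS against Control with 0.333, and 0.63 for LPS_NZM against Control with 0.234). Rows whose transcript is at least 95% identical to a member's over at least 80% of the copy's length were therefore added up in a check chosen after seeing the data. With its 84 copies, Gapdh summed to 4901, 4979 and 4662 TPM in LPS_NZM, 4584, 4668 and 4777 TPM in LPS and 4699, 4451 and 4646 TPM in Control. On that sum all 9 libraries lay close together, and the changes were 0.052 (adjusted p = 0.162), 0.024 (0.489) and 0.076 (0.0745) in the same order.

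Lactate dehydrogenase and the monocarboxylate transporters close the route. Ldha (ENSMUSG00000063229), the subunit that favours lactate formation, had 1087, 1093 and 1029 TPM in LPS_NZM, 1143, 1157 and 1187 TPM in LPS and 977, 961 and 944 TPM in Control. The groups did not overlap and LPS was the highest, but the differences were small beside those of the transporters. Ldha changed by -0.12 (SE 0.029, adjusted p = 0.00367) for LPS_NZM against LPS, 0.27 (SE 0.029, adjusted p = 9.94e-06) for LPS against Control and 0.15 (SE 0.029, adjusted p = 0.00171) for LPS_NZM against Control. Slc16a3 (ENSMUSG00000025161), which encodes the lactate exporter MCT4 of glycolytic cells, had 69.5, 66.7 and 71.2 TPM in LPS_NZM, 211, 217 and 222 TPM in LPS and 79.1, 76.2 and 79.7 TPM in Control. All LPS libraries were above 200 TPM, and the other 6 were below 80 TPM with LPS_NZM below Control. It changed by -1.63 (SE 0.036, adjusted p = 7.72e-11) for LPS_NZM against LPS and 1.46 (SE 0.036, adjusted p = 1.71e-10) for LPS against Control. The lower level in LPS_NZM than in Control, -0.18 (SE 0.036, adjusted p = 0.00251), was not called after centring (adjusted p = 0.0617).

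Slc16a1, which encodes MCT1, a carrier that works in both directions, had 17.1, 16.6 and 19.2 TPM in LPS_NZM, 41.4, 39.2 and 38.2 TPM in LPS and 18.6, 21.3 and 20.8 TPM in Control. LPS was the highest, and LPS_NZM overlapped Control. The changes were -1.13 (SE 0.070, adjusted p = 1.68e-07) for LPS_NZM against LPS and 0.94 (SE 0.070, adjusted p = 6.69e-07) for LPS against Control. LPS_NZM against Control gave -0.19 (SE 0.070, adjusted p = 0.0496), a call that held only when LPS_NZM replicate 3 or Control replicate 1 was the library left out, with adjusted p between 0.0566 and 0.16 otherwise, and that was lost after centring (0.204). Ldhb, the subunit that favours pyruvate formation, stayed below 20 TPM in every BMDM library. It was lower in LPS than in Control as deposited (log2 change -0.60, SE 0.11, adjusted p = 0.000503) and was not called after centring (adjusted p = 0.708).

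In the oxidative branch of the pentose phosphate pathway the enzymes did not move together. G6pdx (ENSMUSG00000031400), the dehydrogenase of the entry step, had 217, 213 and 211 TPM in LPS_NZM, 244, 261 and 258 TPM in LPS and 301, 306 and 305 TPM in Control. LPS_NZM was the lowest group and Control the highest, without overlap. It changed by -0.25 (SE 0.030, adjusted p = 2.54e-05) in LPS_NZM against LPS and by -0.51 (SE 0.030, adjusted p = 5.36e-07) in LPS_NZM against Control, and both falls were called on both scales. LPS against Control gave -0.26 (SE 0.030, adjusted p = 2.03e-05) as deposited and 0.29 (adjusted p = 3.24e-05) after centring. Pgls, the lactonase of the second step, had 142, 139 and 131 TPM in LPS_NZM, 74.7, 63.9 and 65.8 TPM in LPS and 142, 137 and 127 TPM in Control. Every LPS library was below the other 6, and LPS_NZM overlapped Control. Pgls changed by 1.00 (SE 0.064, adjusted p = 2.18e-07) for LPS_NZM against LPS, -0.98 (SE 0.064, adjusted p = 2.60e-07) for LPS against Control and 0.024 (SE 0.064, adjusted p = 0.781) for LPS_NZM against Control.

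Pgd, the phosphogluconate dehydrogenase that ends the oxidative branch, had 706, 695 and 689 TPM in LPS_NZM, 1037, 1052 and 1066 TPM in LPS and 917, 966 and 966 TPM in Control. LPS_NZM was the lowest group and LPS the highest. It changed by -0.59 (SE 0.026, adjusted p = 1.32e-08) in LPS_NZM against LPS and by -0.45 (SE 0.026, adjusted p = 5.69e-07) in LPS_NZM against Control. In the non-oxidative branch, Tkt, transketolase, had 438, 437 and 423 TPM in LPS_NZM, 251, 271 and 272 TPM in LPS and 372, 370 and 371 TPM in Control. Every LPS library was below the rest, and Tkt rose in LPS_NZM against LPS (log2 change 0.71, SE 0.034, adjusted p = 2.23e-08) and against Control (log2 change 0.22, SE 0.034, adjusted p = 0.000473). LPS against Control gave -0.49 (SE 0.034, adjusted p = 3.93e-07) as deposited and 0.060 (adjusted p = 0.204) after centring. Taldo1, transaldolase, had 743, 724 and 736 TPM in LPS_NZM, 580, 568 and 571 TPM in LPS and 916, 860 and 891 TPM in Control. LPS was the lowest group and Control the highest, without overlap. It fell in LPS against Control (log2 change -0.63, SE 0.027, adjusted p = 9.57e-09) and in LPS_NZM against Control (log2 change -0.28, SE 0.027, adjusted p = 2.19e-05) on both scales, while LPS_NZM against LPS gave 0.36 as deposited and -0.11 after centring. Rpia, the ribose phosphate isomerase, averaged 21.5 ± 1.3 TPM in LPS_NZM, 13.4 ± 1.68 TPM in LPS and 16.8 ± 1.77 TPM in Control, and Rpe, the epimerase, 35.0 ± 1.88, 40.7 ± 0.921 and 39.4 ± 1.86 TPM in the same groups (SD, n = 3 each). Rpia rose in LPS_NZM against Control (log2 change 0.34, SE 0.10, adjusted p = 0.0162), while Rpe fell in LPS_NZM against LPS (log2 change -0.21, SE 0.051, adjusted p = 0.00335).

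Summed over steps, the glucose transporter rows came to 118 ± 0.828 TPM in LPS_NZM, 531 ± 13.1 TPM in LPS and 64.8 ± 3.12 TPM in Control (SD, n = 3 each). The PFKFB rows came to 148 ± 5.37, 1764 ± 36.0 and 131 ± 1.53 TPM in the same groups. Both sums were highest in LPS, where the sum of the 4 non-oxidative pentose phosphate rows was lowest (1224 ± 11.6, 892 ± 6.13 and 1317 ± 25.8 TPM). All these sums are as deposited, a scale on which the median log2 change of all tested genes in LPS against Control was -0.48. Of the non-oxidative rows, Taldo1 fell there on both scales, while Tkt and Rpia changed sign after centring (0.060 and 0.23). The 3 oxidative rows came to 1048 ± 18.0, 1374 ± 17.2 and 1389 ± 25.2 TPM, so that the LPS and Control sums overlapped and LPS_NZM was below both. The hexokinase sum was 353 ± 8.45, 358 ± 13.7 and 378 ± 7.91 TPM, with Hk3 lowest in LPS, where Hk1 and Hk2 were highest. The lower level of Hk3 in LPS than in Control depended on the scale, with -0.41 as deposited and 0.14 after centring. Over all 34 rows the sums were 12543 ± 291, 14802 ± 271 and 13462 ± 23.4 TPM. Pfkfb3 alone averaged 56.8, 1742 and 64.4 TPM of these, so the higher total in LPS does not stand for the pathway as a whole. The Gapdh row in the total held 1.34% to 4.39% of the sum with its copies in BMDM. With all copies added the totals were 17586 ± 377, 19700 ± 394 and 18311 ± 145 TPM.

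**Figure D3:**
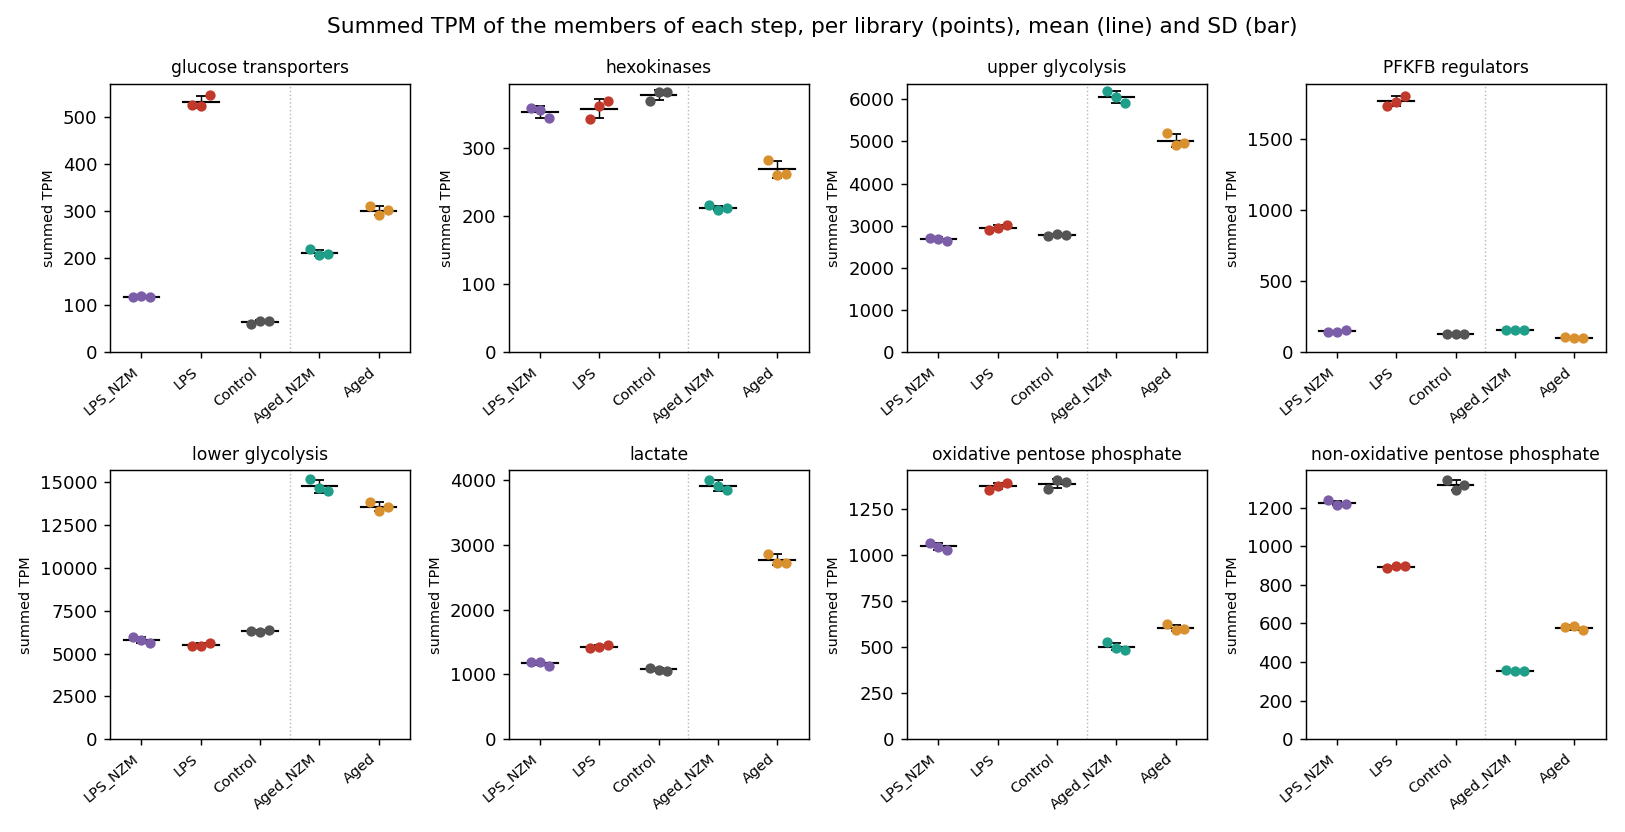
Summed TPM of the members of each pathway step (y axis, from 0) in every library (points) of the 5 groups (x axis), with the mean as a line and the SD as a bar (n = 3). The PFKFB sum averages 1764 TPM in LPS and at most 157 TPM in any other group, and the non-oxidative pentose phosphate sum is 353 TPM in Aged_NZM and 578 TPM in Aged.

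The BMSC libraries allow a single contrast, Aged_NZM against Aged. Lactate dehydrogenase genes, Slc16a1, Pfkfb3, Pfkl, Pfkm and most of the lower glycolytic enzymes rose, while Slc2a1, Hk2, Pfkfb4 and 6 of the 7 pentose phosphate genes fell, 5 of them also after centring. In limma over 13865 tested genes, 15 of 33 tested member rows rose and 13 fell, where 21.6% of all tested genes rose and 48.9% fell. The median change was 0.006 over the members and -0.18 over all genes. Centring left 19 that rose and 9 that fell (31.1% and 35.4% of all tested genes), and 15 and 9 were called on both scales. The stromal marker sum was also higher in Aged_NZM (4176 to 4259 TPM) than in Aged (1287 to 1387 TPM). Lepr (means of 0.213 TPM in Aged_NZM and 0.603 TPM in Aged) and Vcam1 (26.6 and 28.3 TPM) were lower, and the other listed stromal markers were higher. The part of the stromal markers in these changes was not tested. Hk3 did not reach the filter, at no more than 0.06 TPM in Aged_NZM and 0.12 TPM in Aged.

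At the entry, Slc2a1 had 211, 199 and 201 TPM in Aged_NZM and 301, 281 and 293 TPM in Aged. Every Aged_NZM library was below every Aged library, and the change was -0.52 (SE 0.039, adjusted p = 2.17e-06). Hk2 had 58.3, 58.7 and 57.7 TPM in Aged_NZM and 102, 93.3 and 92.3 TPM in Aged, again without overlap (log2 change -0.71, SE 0.045, adjusted p = 6.50e-07). Hk1 was lower as deposited (-0.17, adjusted p = 0.00432) and was not called after centring (adjusted p = 0.877). Pfkfb3 had 134, 130 and 134 TPM in Aged_NZM and 81.6, 75.4 and 73.5 TPM in Aged. All Aged_NZM libraries were higher, by 0.78 (SE 0.045, adjusted p = 3.38e-07). Pfkfb4 had 9.21, 9.38 and 8.6 TPM in Aged_NZM and 13.8, 12.6 and 13.6 TPM in Aged, and fell without overlap (log2 change -0.51, SE 0.065, adjusted p = 7.41e-05). Pfkfb2 rose (log2 change 0.20, SE 0.063, adjusted p = 0.017), a call lost without Aged_NZM replicate 2 (0.0732) and in a single fit of all 15 libraries (0.066). Pfkl had 333, 311 and 306 TPM in Aged_NZM and 261, 233 and 233 TPM in Aged, and Pfkm averaged 72.5 ± 1.13 TPM in Aged_NZM and 55.6 ± 3.8 TPM in Aged (SD, n = 3 each). Both rose, by 0.39 (adjusted p = 0.000111) for Pfkl and 0.38 (adjusted p = 0.000107) for Pfkm, while Pfkp fell (-0.33, adjusted p = 2.83e-05).

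In the lower chain, Aldoc had 14.2, 13.9 and 11.7 TPM in Aged_NZM and 9.11, 8.06 and 8.31 TPM in Aged, a rise of 0.58 (SE 0.085, adjusted p = 0.000188) with no overlap. Gapdh had 4672, 4430 and 4322 TPM in Aged_NZM and 3784, 3691 and 3775 TPM in Aged. Its rise of 0.25 (SE 0.039, adjusted p = 0.000262) was similar with the copies summed (0.28, adjusted p = 0.000747), but it was not called in a single fit of all 15 libraries (adjusted p = 0.589). Tpi1, Pgk1, Aldoa, Eno1 and Eno2 rose by 0.11 to 0.40. Of these, the call for Eno1 was lost without Aged_NZM replicate 2 (adjusted p = 0.0693) or Aged replicate 2 (0.0774), and that for Eno2 in the fit of all 15 libraries (0.472). Pkm had 5110, 4886 and 4800 TPM in Aged_NZM and 5117, 4787 and 4858 TPM in Aged, which overlapped (log2 change 0.003, SE 0.041, adjusted p = 0.946). After centring its change was 0.16 (adjusted p = 0.00942). The second row of Aldoa, Aldoa (second row), had 2.01, 1.55 and 1.08 TPM in Aged_NZM and 3.99, 2.69 and 1.81 TPM in Aged. These low values overlapped, and the call (log2 change -0.56, SE 0.21, adjusted p = 0.0386) was lost after centring (adjusted p = 0.122) or without Aged_NZM replicate 2 (0.0689), Aged_NZM replicate 3 (0.126), Aged replicate 1 (0.147) or Aged replicate 2 (0.0701).

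The largest rise among the members in BMSC was that of Ldhb (ENSMUSG00000030246), with 190, 178 and 177 TPM in Aged_NZM and 81.5, 84.7 and 84.8 TPM in Aged. Each Aged_NZM library was far above every Aged library, and the change was 1.11 (SE 0.040, adjusted p = 1.78e-08). Ldha had 3395, 3309 and 3242 TPM in Aged_NZM and 2498, 2363 and 2356 TPM in Aged, higher in each Aged_NZM library (log2 change 0.46, SE 0.038, adjusted p = 3.50e-06). Slc16a1 (ENSMUSG00000032902) had 335, 341 and 348 TPM in Aged_NZM and 208, 200 and 201 TPM in Aged. The groups did not overlap, and the change was 0.75 (SE 0.033, adjusted p = 6.49e-08). Slc16a3 had 84.3, 79.0 and 74.5 TPM in Aged_NZM and 79.3, 74.8 and 74.4 TPM in Aged. These overlapped (log2 change 0.055, SE 0.051, adjusted p = 0.364), although the change was called after centring (0.21, adjusted p = 0.00331).

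Pentose phosphate genes were lower in Aged_NZM than in Aged, apart from the entry enzyme. Taldo1 (ENSMUSG00000025503) had 224, 223 and 224 TPM in Aged_NZM and 408, 420 and 398 TPM in Aged. No library overlapped, and the fall was the largest of the members in BMSC (log2 change -0.86, SE 0.033, adjusted p = 2.45e-08). Pgd had 161, 157 and 155 TPM in Aged_NZM and 230, 225 and 212 TPM in Aged, again without overlap (log2 change -0.49, SE 0.039, adjusted p = 2.89e-06). Rpia averaged 13.4 ± 0.398 TPM in Aged_NZM and 19.5 ± 1.8 TPM in Aged (log2 change -0.51, SE 0.071, adjusted p = 0.000148). Rpe and Tkt also fell, with changes of -0.48 (SE 0.050, adjusted p = 1.87e-05) and -0.34 (SE 0.041, adjusted p = 4.99e-05). These 5 genes fell on both scales, whereas Pgls fell as deposited (-0.27, adjusted p = 0.00194) and was not called after centring (0.107). G6pdx had 164, 162 and 157 TPM in Aged_NZM and 165, 155 and 161 TPM in Aged. Its groups overlapped (log2 change 0.006, SE 0.037, adjusted p = 0.887), and centring gave 0.17 (adjusted p = 0.00195).

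Whether the members answered NZM differently in the 2 settings was tested as the difference of the changes, Aged_NZM against Aged minus LPS_NZM against LPS, in a fit of all 15 libraries and 16696 genes. The cell type and the pretreatment both differ between these contrasts and cannot be told apart. The division of reads between near-identical copies also differed between the BMDM and BMSC libraries (below). A positive difference was called for 15 member rows and a negative one for 12, where 17.2% and 54.8% of all tested genes were. After centring the counts were 23 and 6 (39.9% and 28.7% of all tested genes). Pfkfb3 gave the largest difference, 5.70 (SE 0.090, adjusted p = 2.92e-15), with 0.78 in BMSC and -4.92 in BMDM. Slc2a6 came next on the positive side at 3.09 (SE 0.30, adjusted p = 3.54e-07), with a change not called in BMSC (-0.32) and -3.41 in BMDM. Slc2a6 averaged only 1.47 TPM in Aged_NZM and 2.13 TPM in Aged, little above the filter of 1 TPM, against 379 TPM in LPS. At such a level in BMSC there was little room for a fall. It was followed by Slc16a1 at 1.87 (SE 0.080, adjusted p = 4.07e-11), with 0.75 in BMSC and -1.13 in BMDM, and by Slc16a3 at 1.69 (SE 0.063, adjusted p = 1.01e-11). On the negative side, Pfkfb4 gave -2.70 (SE 0.079, adjusted p = 8.95e-13), with -0.51 in BMSC and 2.18 in BMDM. Pgls, Pfkfb2 and Taldo1 gave -1.27 (SE 0.10, adjusted p = 1.88e-08), -1.26 (SE 0.12, adjusted p = 4.28e-07) and -1.22 (SE 0.038, adjusted p = 1.84e-12). Slc2a1 and Hk2 fell under NZM in both settings, less in BMSC (-0.52 and -0.71) than in BMDM (-0.97 and -1.22), and the differences were 0.46 (SE 0.058, adjusted p = 5.85e-06) and 0.51 (SE 0.060, adjusted p = 2.38e-06).

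Levels also differed between the BMDM and BMSC libraries, which divided reads between near-identical copies differently as well (below). Aged against Control, which differ in cell type and treatment at once, gave 21 member rows that rose and 11 that fell, where 53.6% of all tested genes rose and 35.2% fell. After centring 17 rose and 13 fell (49.1% and 39.3% of all tested genes). Hk3 was at 0.050 ± 0.0624 TPM in Aged and 241 ± 4.84 TPM in Control (SD, n = 3 each). Slc16a1 averaged 203 ± 4.42 TPM in Aged and 20.2 ± 1.45 TPM in Control (log2 change 3.27, SE 0.056, adjusted p = 4.62e-16), and Slc2a1 292 ± 9.87 and 48.4 ± 1.6 TPM (log2 change 2.57, SE 0.041, adjusted p = 2.04e-16). Eno2 averaged 139 ± 1.48 TPM in Aged and 5.22 ± 2.72 TPM in Control (log2 change 4.61, SE 0.27, adjusted p = 6.10e-10). Of the 7 pentose phosphate genes, 5 fell (G6pdx, Pgd, Rpe, Tkt and Taldo1), with Pgd at 222 ± 9.01 TPM in Aged and 950 ± 28.0 TPM in Control (log2 change -2.09, SE 0.032, adjusted p = 1.07e-16), and Tkt at 121 ± 3.2 and 371 ± 1.14 TPM (log2 change -1.61, SE 0.036, adjusted p = 1.05e-14). The other two were higher in Aged. Pgls averaged 222 ± 8.09 TPM in Aged and 135 ± 7.92 TPM in Control (log2 change 0.72, SE 0.067, adjusted p = 1.38e-07), and Rpia 19.5 ± 1.8 and 16.8 ± 1.77 TPM (log2 change 0.20, SE 0.091, adjusted p = 0.0494), a call that was lost after centring (adjusted p = 0.496). Pfkfb4 was also lower in Aged (log2 change -1.57, SE 0.056, adjusted p = 1.84e-12).

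The own rows of Gapdh and Eno1 held different parts of the reads of their families in the BMDM and BMSC libraries. The own row of Gapdh held 27.6% to 29% of the sum with its copies in BMSC libraries and 1.34% to 4.39% in BMDM libraries. For Eno1 the own row held 21.9% to 23.2% in BMSC and 87.4% to 87.9% in BMDM, with the protein-coding copy Eno1b at 1106 TPM in Aged and 99.2 TPM in Control. The change of Eno1 in Aged against Control was -1.12 (SE 0.035, adjusted p = 4.06e-13) on its own row and 0.84 (SE 0.036, adjusted p = 1.62e-11) with the 4 copies summed. That of Gapdh was 5.86 (SE 0.34, adjusted p = 5.99e-10) on its own row and 1.5 (SE 0.042, adjusted p = 1.03e-13) on the sum. The other members with copies (Pgk1, Ldha, Ldhb, Pgam1, Pkm and Tpi1) kept at least 88.3% of their sum on their own row in every library. Among their copies, Pgk1-rs7 averaged 26.6 TPM in Control and 0 TPM in Aged, and Pgam1-ps2 62.3 and 0 TPM. Whether the cells, the treatment or the processing made the division of reads between the rows differ was not tested.

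**Figure D4:**
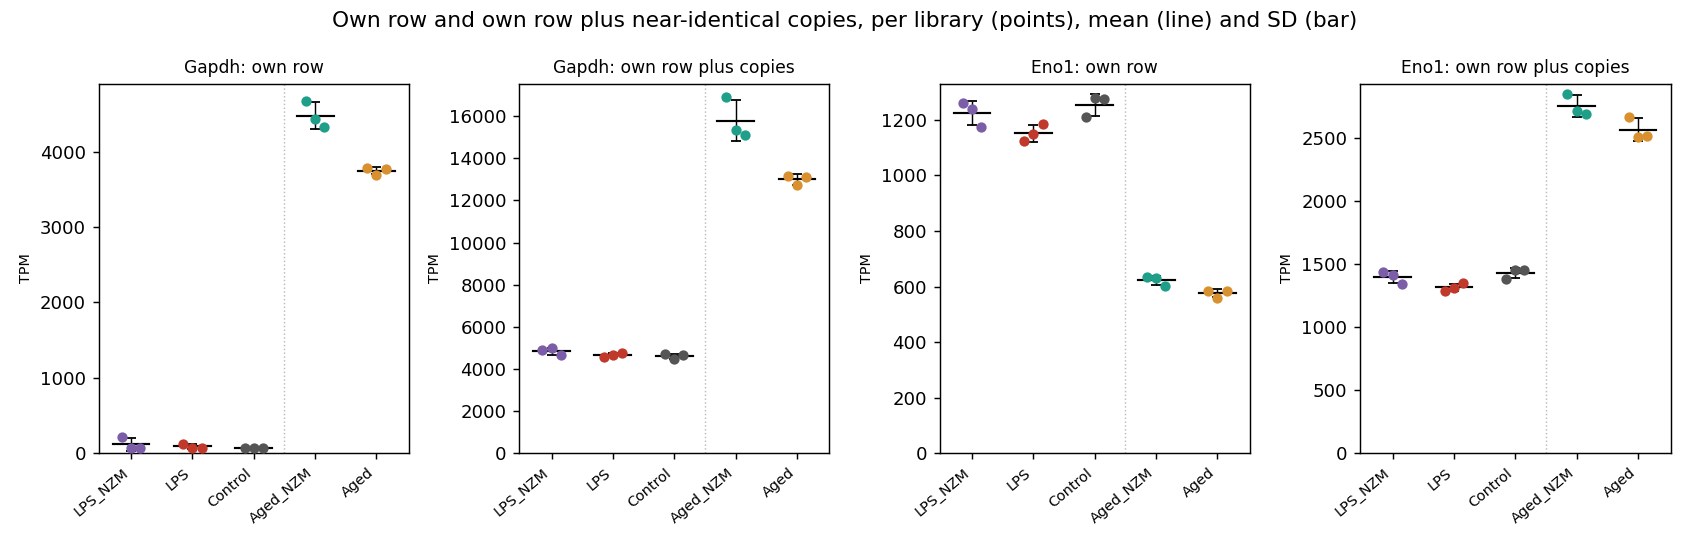
TPM of Gapdh and Eno1 (y axis, from 0) on the gene's own row and with its near-identical copies added, in every library (points) of the 5 groups (x axis), with the mean as a line and the SD as a bar (n = 3). Eno1 is lower in BMSC than in BMDM on its own row and higher on the sum, where it averages 2565 TPM in Aged and 1429 TPM in Control.

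The share of an isoform within its family does not depend on the scaling of a library. Pfkfb3 made up 38.2% ± 1.85 of the 3 PFKFB transcripts in LPS_NZM, 98.8% ± 0.029 in LPS and 49.1% ± 3.87 in Control (SD, n = 3 each), and 84.5% ± 0.935 in Aged_NZM and 74.4% ± 1.28 in Aged. Hk2 made up 8.81% ± 0.391 of the hexokinase transcripts in LPS_NZM, 20.6% ± 0.62 in LPS and 13.7% ± 0.362 in Control, and 27.4% ± 0.575 in Aged_NZM and 35.6% ± 0.442 in Aged. Slc2a1 was 62.2% ± 1.38 of the 3 glucose transporter transcripts in LPS_NZM, 27.3% ± 0.892 in LPS, where Slc2a6 exceeded it, and 74.7% ± 1.34 in Control. Slc16a3 was 79.7% ± 0.816 of the Slc16a1 and Slc16a3 sum in LPS_NZM, 84.5% ± 0.88 in LPS and 79.5% ± 1.43 in Control, but 18.9% ± 1.25 in Aged_NZM and 27.3% ± 0.295 in Aged. Ldha was 94.8% ± 0.099 of the lactate dehydrogenase transcripts in Aged_NZM and 96.6% ± 0.177 in Aged. Shares of 8 families were compared in 4 comparisons, and the groups overlapped in 6 of the 32 pairs (Slc16a3 and Ldha in LPS_NZM against Control, Pfkp in LPS against Control, and Eno2 in the 3 comparisons within BMDM). A two-sided exact permutation test of 3 against 3 libraries cannot give less than p = 0.1, the value found for every pair without overlap, and its adjusted value over the 32 tests was 0.123. For Slc16a3 in LPS_NZM against Control the exact p was 0.9.

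**Figure D5:**
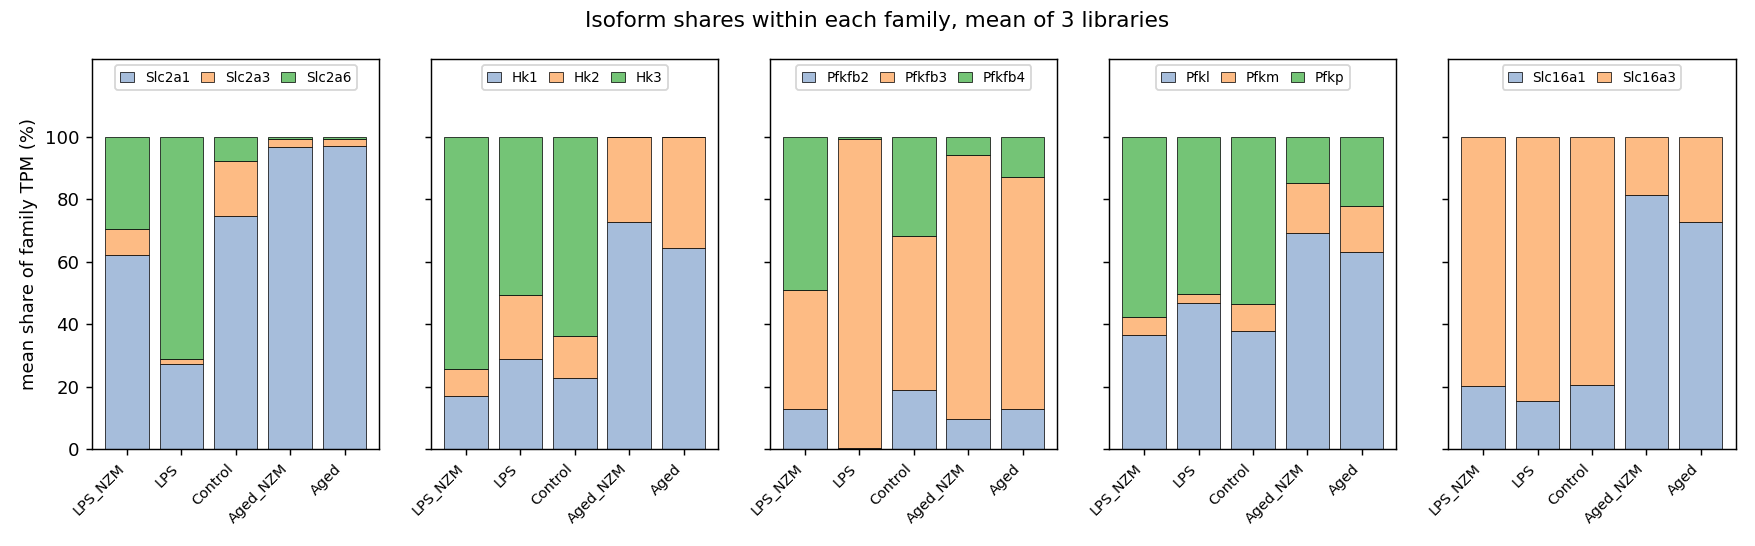
Mean share of each isoform in the summed TPM of its family (y axis, percent, stacked to 100) in the 5 groups (x axis, n = 3 libraries each) for 5 families. Pfkfb3 takes 98.8% of the PFKFB sum in LPS, and Hk3 is too small to see in the BMSC bars.

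Other genes around the pathway were followed as lists, and the shares of all tested genes give the background for their counts. In LPS_NZM against LPS, 60.4% of all tested genes rose and 16.9% fell as deposited, and 29.8% and 35.3% after centring. In LPS against Control the shares were 15.2% and 65.6% as deposited, and 36.5% and 29.1% after centring, and in Aged_NZM against Aged 21.6% and 48.9% as deposited, and 31.1% and 35.4% after centring. Of 15 tested regulators of the pathway, 8 rose and 4 fell in LPS_NZM against LPS, and 5 rose and 7 fell in LPS against Control. After centring, 2 rose and 11 fell in LPS_NZM against LPS, and 11 rose and 2 fell in LPS against Control. The list's median change was 0.18 in LPS_NZM against LPS and -0.090 in LPS against Control, beside 0.40 and -0.48 over all tested genes. Hif1a, the oxygen-regulated subunit of the hypoxia-inducible factor, was at 70.3 ± 3.04 TPM in LPS_NZM and 256 ± 6.28 TPM in LPS (log2 change of -1.85 with SE 0.047, adjusted p = 2.18e-10), and against Control it rose in LPS by 1.42 (SE 0.047, adjusted p = 1.6e-09). Myc, a transcription factor that drives glycolytic and biosynthetic genes, was at 141 ± 1.5 TPM in LPS_NZM and 43.6 ± 1.57 TPM in LPS (log2 change of 1.67 with SE 0.036, adjusted p = 6.69e-11). Txnip, an inhibitor of glucose uptake, was at 429 ± 3.75 TPM in LPS_NZM and 143 ± 0.30 TPM in LPS (log2 change of 1.58 with SE 0.028, adjusted p = 1.80e-11). In BMSC, 6 regulators rose and 6 fell (7 and 4 after centring, median -0.034, beside -0.18 over all genes), with Myc at 117 ± 1.36 TPM in Aged_NZM and 216 ± 4.54 TPM in Aged (log2 change of -0.88 with SE 0.033, adjusted p = 2.43e-08) and Txnip at 215 ± 3.59 TPM in Aged_NZM and 132 ± 3.12 TPM in Aged (log2 change of 0.70 with SE 0.034, adjusted p = 1.10e-07). Hif1a, which fell under NZM in BMDM, rose in BMSC by 0.24 (SE 0.045, adjusted p = 0.000861), with means of 501.7 TPM in Aged_NZM and 423.5 TPM in Aged. Each of these changes had the same sign and was called after centring.

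Among 18 tested other glycolytic isoenzymes and accessory genes, 15 rose and 1 fell in LPS_NZM against LPS, and 1 rose and 15 fell in LPS against Control. Their median changes were 0.65 and -0.67, beside 0.40 and -0.48 over all tested genes, most of which moved the same way. After centring, 9 rose and 5 fell in LPS_NZM against LPS, and 4 rose and 8 fell in LPS against Control. Slc2a9, a urate and hexose transporter, was at 28.4 ± 0.413 TPM in LPS_NZM and 3.9 ± 0.35 TPM in LPS (log2 change of 2.59 with SE 0.070, adjusted p = 3.15e-10). Galm, the mutarotase that interconverts the ring forms of glucose and galactose, was at 21.3 ± 0.35 TPM in LPS_NZM and 3.92 ± 0.443 TPM in LPS (log2 change of 2.19 with SE 0.081, adjusted p = 3.33e-09). In BMSC, 9 rose and 6 fell among 16 tested (9 and 4 after centring, median 0.13), with Tigar, a phosphatase that lowers the activator of phosphofructokinase, at 3.96 ± 0.31 TPM in Aged_NZM and 12.6 ± 0.717 TPM in Aged (log2 change of -1.46 with SE 0.079, adjusted p = 2.41e-07).

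Of 7 tested genes for other pentose phosphate and ribose steps, all 7 rose in LPS_NZM against LPS, where 60.4% of all tested genes rose, and all 7 fell in LPS against Control, where 65.6% fell. Their median changes were 1.03 and -1.0, beside 0.40 and -0.48 over all tested genes. After centring, 5 rose and none fell in LPS_NZM against LPS, and none rose and 4 fell in LPS against Control. Prps1, which makes the ribose donor for nucleotide synthesis, was at 97.3 ± 2.38 TPM in LPS_NZM and 14.8 ± 0.806 TPM in LPS (log2 change of 2.63 with SE 0.048, adjusted p = 2.14e-11). In Aged_NZM against Aged, 1 of the 7 rose and 4 fell, also after centring (median -0.32, beside -0.18), and Prps1 was at 41.9 ± 0.541 TPM in Aged_NZM and 81.1 ± 2.25 TPM in Aged (log2 change of -0.94 with SE 0.039, adjusted p = 4.18e-08), while H6pd, the dehydrogenase of the endoplasmic reticulum, was at 49.1 ± 0.945 TPM in Aged_NZM and 28.2 ± 2.06 TPM in Aged (log2 change of 0.78 with SE 0.055, adjusted p = 1.41e-06).

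Pyruvate entry into mitochondria and glycogen and glucose synthesis completed the lists. Of 13 tested genes for pyruvate entry, 10 rose and 1 fell in LPS_NZM against LPS (4 and 3 after centring), and 2 rose and 10 fell in LPS against Control (5 and 6 after centring). Their medians of 0.45 and -0.55 were close to those of all tested genes, 0.40 and -0.48. In Aged_NZM against Aged, 6 rose and 6 fell (7 and 5 after centring, median 0.066, beside -0.18). Pdk4, a kinase that switches off pyruvate dehydrogenase, was at 9.58 ± 0.682 TPM in LPS_NZM and 5.01 ± 0.125 TPM in LPS (log2 change of 0.81 with SE 0.071, adjusted p = 2.37e-06), and at 7.46 ± 0.382 TPM in Aged_NZM and 19.6 ± 1.08 TPM in Aged (log2 change of -1.28 with SE 0.066, adjusted p = 1.68e-07). Pdk2, a kinase of the same family, rose in both settings and on both scales. Its log2 change was 1.48 (SE 0.099, adjusted p = 3.04e-07) in LPS_NZM against LPS and 0.71 (SE 0.065, adjusted p = 8.31e-06) in Aged_NZM against Aged. Of 12 tested glycogen genes, 9 rose and 2 fell in LPS_NZM against LPS (3 and 4 after centring), and 2 rose and 9 fell in LPS against Control (3 and 5 after centring). Their medians were 0.47 and -0.58, again near those of all tested genes. In Aged_NZM against Aged, 6 of 13 rose and 3 fell (8 and 2 after centring, median 0.019, beside -0.18). Of 3 tested genes of gluconeogenesis, 1 rose and 1 fell in Aged_NZM against Aged (2 and 1 after centring), and Pcx, pyruvate carboxylase, was at 34.1 ± 1.3 TPM in Aged_NZM and 10.7 ± 0.396 TPM in Aged (log2 change of 1.59 with SE 0.054, adjusted p = 1.40e-08).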

How the data were processed

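The authors deposited one table of TPM with 1 column per library. Per the submitters' processing notes, fastp, HISAT2, StringTie and RSEM were used with the genome build GRCm39; versions, roles and the gene annotation are not given in the sources used here. Each deposited TPM column summed to the same total, so depth is unknown and no counting interval is given. Symbols came from a name table that matched 52072 of 56979 identifiers. The members and lists were chosen with earlier results of these data known, which is why no test over the list is given.

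All tests except the permutation tests of isoform shares used limma 3.58.1 (R 4.3.3) on the log2(TPM + 1) scale (linear model, empirical Bayes with a mean-variance trend, two-sided), for genes with a TPM of at least 1 in at least 3 libraries of the fit. The 9 BMDM libraries and the 6 BMSC libraries were fitted apart; the 15 libraries together gave the difference of NZM responses and Aged against Control. The limma p-values were adjusted by Benjamini-Hochberg over all tested genes, and a gene was called at an adjusted p under 0.05. Changes of low genes are understated on this scale. Members given in full were, in each comparison, the 4 largest rises and 4 largest falls among called members, and a fixed set (Slc2a1, Hk2, Pfkfb3, Gapdh, Pkm, Ldha, Slc16a3, G6pdx); from each list up to 3 genes with the largest changes could be named. The pathway lists held no match for Rpel1 and Gyg1. Near-identical copies were found with BLAST+ 2.17.0 among GENCODE transcripts, over at least 200 aligned bases. Promoter windows are RefSeq sequences on GRCm38.p6. Figures were drawn with Python 3.11.15 and matplotlib 3.10.9. The fitting procedure was also run on simulated data with known changes in a small part of the genes and independent normal noise. In the data most genes were called in most comparisons, so that run does not check the calls given here. Alternatives were median-centring, no filter or a TPM of at least 5, no trend, a pseudocount of 0.1, a replicate block, other sets of libraries in the fit, leaving out each library in turn, and, added after seeing the data, the summing of copies.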

Additional observations from a re-analysis of the deposited data

Results flagged for a closer look

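For 13 of the members given in full, the response to NZM differed between BMSC and BMDM by the test of the difference itself (limma, all 15 libraries, positive where the log2 change in Aged_NZM against Aged exceeded that in LPS_NZM against LPS). They are the largest called differences of this same comparison and the called members of the fixed set. Of all 16696 tested genes 72% were called here, and 27 of 34 member rows (79.4%), so a called difference was the usual outcome. Among uptake and entry genes, the difference was 0.46 for Slc2a1 (adjusted p = 5.85e-06), 3.09 for Slc2a6 (3.54e-07) and 0.51 for Hk2 (2.38e-06). Slc2a6 was near the filter in BMSC, with means of 1.47 TPM in Aged_NZM and 2.13 TPM in Aged. Among the PFKFB genes it was -1.26 for Pfkfb2 (4.28e-07), 5.70 for Pfkfb3 (2.92e-15) and -2.70 for Pfkfb4 (8.95e-13). For the lactate route it was 0.58 for Ldha (2.87e-08), 1.87 for Slc16a1 (4.07e-11) and 1.69 for Slc16a3 (1.01e-11). For pentose phosphate genes it was 0.26 for G6pdx (0.000127), -1.27 for Pgls (1.88e-08) and -1.22 for Taldo1 (1.84e-12). Pkm gave -0.22 (0.00099), and this sign turned after centring (0.41, adjusted p = 1.87e-05). Cell type and pretreatment cannot be told apart in any of these. Groups of 3 libraries were too small for a formal test of outlying libraries, and the effect of leaving out each library in turn is given below.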

How the results depend on the processing

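Median-centring was the alternative that moved counts of called members past 1.5 times: those that fell in LPS against Control numbered 6, those that rose in LPS_NZM against LPS 5, those that fell in LPS_NZM against Control 9, and the positive and negative differences between the NZM responses 23 and 6. Centring shifts every gene of a library alike, and it turned the sign of the following log2 changes. In LPS against Control it gave 0.14 for Hk3, 0.085 for Gpi1, 0.42 for Eno1, 0.14 for Eno2, 0.10 for Pkm, 0.29 for G6pdx, 0.23 for Rpia and 0.060 for Tkt. In LPS_NZM against LPS it gave -0.077 for Slc2a3, -0.006 for Pfkm, -0.28 for Gapdh, -0.38 for Eno1, -0.23 for Eno2, -0.24 for Pkm and -0.11 for Taldo1. In LPS_NZM against Control it gave 0.001 for Pgam1 and 0.047 for Eno1, in Aged_NZM against Aged 0.13 for Pgam1, and in Aged against Control -0.002 for Pfkp. Of the differences of NZM response, it gave 0.050 for Hk3, 0.18 for Gpi1, 0.55 for Pfkm, 0.41 for Pkm and 0.36 for Rpe. A pseudocount of 0.1 turned the difference of Eno2 to -0.034, and summing copies turned Eno1 in Aged against Control to 0.84.

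Leaving out each library in turn gave 14 to 15 risen and 15 to 17 fallen members in LPS against Control, 13 to 15 and 17 in LPS_NZM against LPS, 7 to 10 and 12 to 16 in LPS_NZM against Control, 13 to 15 and 12 to 13 in Aged_NZM against Aged, and 19 to 21 and 11 in Aged against Control. The difference between the NZM responses gave 15 to 16 positive and 12 negative members. Changes near 0 crossed it: Gapdh ran from -0.37 to 0.47 in LPS_NZM against LPS; in LPS_NZM against Control the second Aldoa row ran from -0.28 to 0.025, Pgk1 from -0.004 to 0.013, Eno2 from -0.61 to 0.080, Ldhb from -0.17 to 0.007, Pgls from -0.022 to 0.062 and the Slc16a3 share from -0.453 to 0.965 percentage points. In Aged_NZM against Aged, Pkm ran from -0.022 to 0.032 and G6pdx from -0.019 to 0.027. For the difference between the NZM responses, Gapdh ran from -0.22 to 0.62 (called without LPS_NZM replicate 1, adjusted p = 0.0357, and with copies summed, 0.00312), Eno1 from -0.007 to 0.044 and Eno2 from -0.17 to 0.12.

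Deviations of libraries that share a replicate number correlated weakly (from -0.076 to 0.199, not all above 0.1 in any comparison). In LPS_NZM against Control, replicates 1 (0.151) and 3 (0.199) correlated best with their own number when seen from either group, and replicate 2 (0.017) did not. In the other comparisons none did so from both groups. Seen from the first group only, LPS replicate 3 (0.032, highest other 0.022) and Aged_NZM replicate 2 (0.015, highest other 0.009) did. Groups of 3 libraries cannot settle whether the numbers pair them, and the main fits were unpaired. With a replicate block, 14 members rose and 16 fell in LPS against Control, and 14 rose and 17 fell in LPS_NZM against LPS; the counts of the other comparisons did not move. Pfkfb3 in LPS_NZM against Control was called with the block (adjusted p = 0.00798), with all 15 libraries in the fit (0.0344) and with a TPM of at least 5 (0.0458), and the calls lost with the block were those of Pgam1 in LPS against Control (0.0533), Eno1 in LPS_NZM against LPS (0.0601) and Slc16a1 in LPS_NZM against Control (0.0737). In a fit of all 15 libraries, the rises of Pfkfb2 (0.066), Eno2 (0.472) and Gapdh (0.589) in Aged_NZM against Aged were not called. With TPM alone, what depth limits cannot be stated.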
